A study of Gallus gallus with 2 samples.

Results

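T cells were taken from droplet-based single-cell RNA sequencing of chicken peritoneum, in which a barcode marks the transcripts of each captured cell and a unique molecular identifier (UMI) marks each transcript, so that copies made by PCR count once. Members were selected on measured UMIs. A barcode was a T cell member when it had more than 500 genes, a UMI of at least 3 of the 8 T cell genes *CD3D*, *CD3E*, *CD247*, *CD28*, *CD8A*, *CD4*, *IL7R* and *TCF7*, and a UMI of at most 1 of the 4 macrophage genes *C1QA*, *C1QB*, *C1QC* and *CSF1R*. In the library titled HVP, called the HVP-labelled library here, 73 of 6829 barcodes with more than 500 genes met this rule (1.07%, 95% Clopper-Pearson interval 0.839% to 1.34%). The Normal-labelled library held 180 members among 6656 such barcodes (2.70%, 2.33% to 3.12%), which made 253 members of 13485 barcodes in both. The 2 intervals do not overlap, but they say nothing of the spread between birds. The members were thus chosen by their UMIs of these 12 genes and by their number of genes, so the levels of the 12 genes are given as a description. All intervals cover counting error only.

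HVP stands for hyperpigmentation of the visceral peritoneum. The tissue came from Huiyang Bearded Chickens aged 40 days, 10 birds with black peritoneum (HVP) and 10 with normal peritoneum, and the dissociated cells of each group form 1 library. No sort of cells is described. Each group is therefore 1 sample in which single birds are not separable, no difference between the groups can be tested, and barcodes are not replicates. The groups are called here by the titles of the libraries, but the names of each library's own files give the opposite group, and if the file names are right every direction between the libraries is the opposite. *DCT*, an enzyme of melanin synthesis, had 1.82 CPM (UMIs of the gene per 1000000 UMIs of all genes) over the barcodes with more than 500 genes of the HVP-labelled library and 4.96 CPM in the Normal-labelled library. More than 1000 genes were found in 5866 barcodes of the HVP-labelled library and 5464 of the Normal-labelled library. The libraries shared 14 barcode sequences, of which 0 were members. Members had a median of 2434 UMIs and 1225 genes in the HVP-labelled library and of 2287 UMIs and 1215 genes in the Normal-labelled library, against medians of 4889 and 3418.5 UMIs in the other barcodes with more than 500 genes.

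T cells recognise antigen through a receptor that signals into the cell through the CD3 chains and *CD247*. The co-receptor CD8 marks T cells that can kill other cells by releasing granules of perforin, granzymes and the saposin-like protein NK-lysin, which bears the symbol *GNLY* in chicken. The co-receptor *CD4* marks helper and regulatory T cells, which depend on costimulatory receptors such as *CD28* and *ICOS*. Chickens also have a large population of gamma delta T cells, part of which carry CD8. The genes of the receptor's alpha and beta chains were not analysed here.

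Among the rule genes, the 3 signalling chains of the receptor were found in most members. *CD3D* had 293 UMIs in 59 members of the HVP-labelled library (1211 CPM, at most 20 in 1 barcode) and 956 UMIs in 164 members of the Normal-labelled library (1561 CPM, at most 29), with a median of 3 UMIs per member in each. In the other barcodes *CD3D* had 2.87 and 13.5 CPM. *CD3E* had 595 and 581 CPM in members of the libraries labelled HVP and Normal, and *CD247* had 926 and 673 CPM. The other rule genes came from fewer barcodes. *TCF7*, a transcription factor of naive and memory T cells, was found in 37 and 83 members, *CD28* in 23 and 67, and the interleukin 7 receptor chain *IL7R* in 27 and 46. The co-receptors were found in few members, at 30 UMIs of *CD8A* in 19 members and 36 of *CD4* in 21 members of the HVP-labelled library, and at 90 UMIs in 52 and 58 in 37 members of the Normal-labelled library. None of the members had all 8 genes. Neither *CD3D* nor *CD3E* was found in 2 members of the HVP-labelled library and 8 of the Normal-labelled library. The macrophage limit removed 0 barcodes in each library, and 0 and 3 members had a UMI of a macrophage gene.

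At the lower edge of the rule, 26 and 63 members had exactly 3 of the T cell genes, and 36 and 74 barcodes just outside it had exactly 2. T cell genes that the rule did not use were higher just inside the edge. *BCL11B*, a transcription factor of the T cell lineage, had 1384 CPM in the barcodes with 3 rule genes and 634 CPM in those with 2 in the HVP-labelled library, and 916 and 341 CPM in the Normal-labelled library. In barcodes with 1 rule gene *BCL11B* had 9.89 and 19.97 CPM. The barcodes with 2 rule genes thus lay between the members and the rest of the tissue, and the member counts at other limits are given at the end.

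The label was checked with T cell genes outside the rule. A gene was counted as higher or lower when its CPM ratio was at least 2-fold in that direction and the interval of the ratio excluded 1. Of the list of the receptor complex and its signalling, 16 of 17 genes with at least 10 UMIs were higher in members than in the other barcodes of the HVP-labelled library and 17 of 18 in the Normal-labelled library, with a median log2 ratio of 7.45 and 6.41. Over all genes outside the rule with that minimum the median was 0.81 and 0.37, 12.5% of 17279 and 13.8% of 16978 genes were higher, and 10.3% and 16.2% were lower. Since the rule picks barcodes by genes of the same cells, these ratios describe the members and are no test of them. *PTPRC*, the phosphatase CD45 of all leukocytes, had 2447 CPM in members of the HVP-labelled library and 1703 CPM in those of the Normal-labelled library, against 21.6 and 42.4 CPM in the other barcodes. Members with a UMI of it numbered 71 of 73 and 172 of 180. The adaptor *LCP2* had 802 and 569.9 CPM in members against 145 and 167 CPM in macrophages, the barcodes with at least 2 of the 4 macrophage genes and at most 1 T cell gene (144 and 167 barcodes, median 2029 and 1825 UMIs). Macrophages also express *PTPRC* and *LCP2*. The kinase *ZAP70*, which relays the receptor's signal, had 128 and 96.3 CPM in members, and 0 UMIs of it were counted in the macrophages of each library. *LCK*, the kinase that starts this signal, was the gene of the list that was not higher, at 37.2 and 29.4 CPM in members and 25.2 and 30.5 CPM in the other barcodes.

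**Figure D1:**
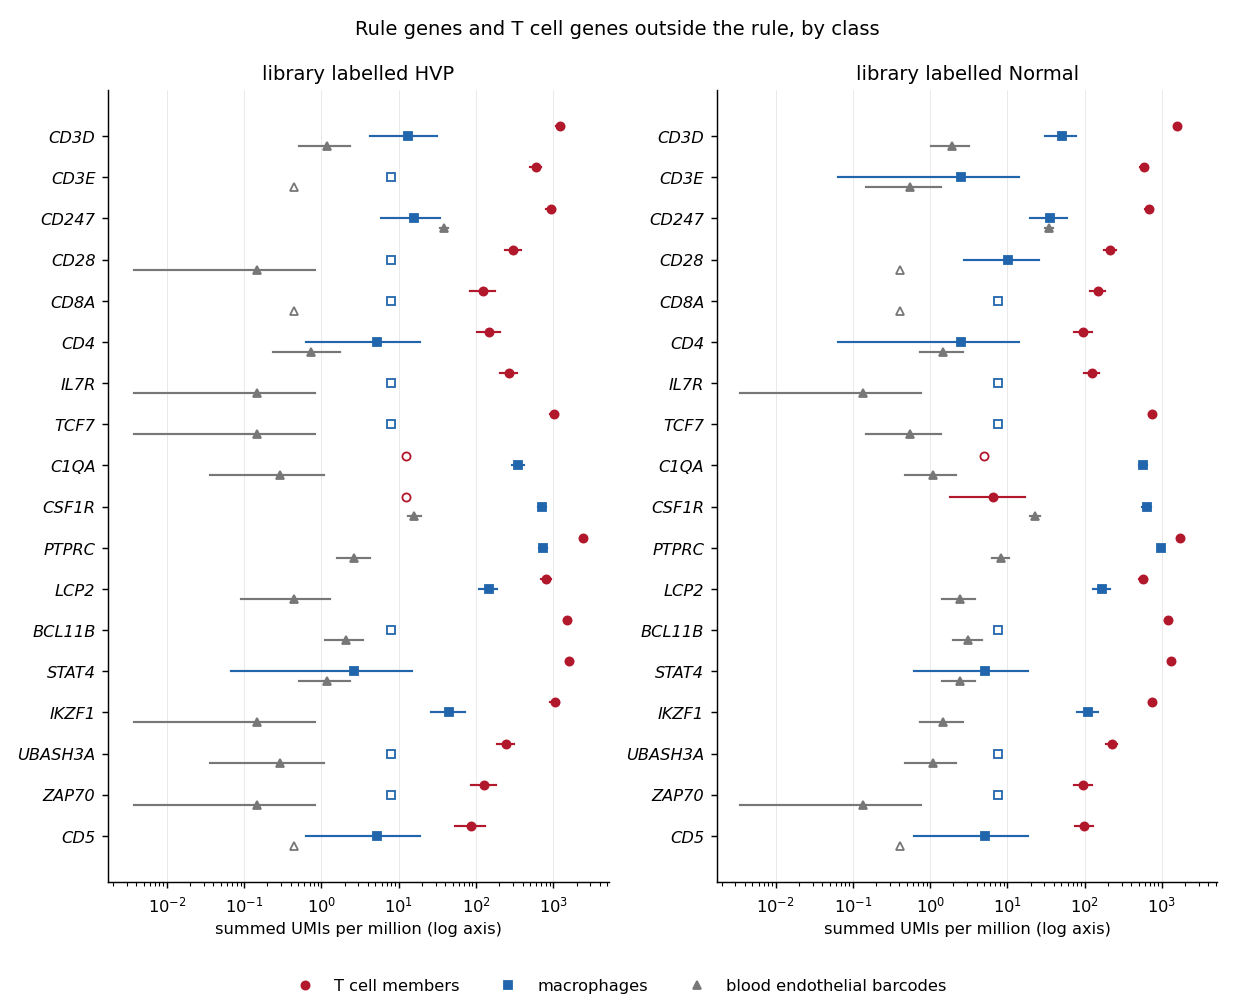
Summed CPM of rule genes (*CD3D* to *CSF1R*) and of T cell genes outside the rule (*PTPRC* to *CD5*) in T cell members (circles), macrophages (squares) and blood endothelial barcodes (triangles; at least 3 of 7 endothelial genes and at most 1 T cell gene) of the HVP-labelled library (left) and the Normal-labelled library (right), on a log axis with 95% Poisson intervals. Open symbols mark a count of 0, drawn at the level of 3 UMIs. For *BCL11B* the members lie at 1509 and 1192 CPM while the macrophages hold 0 UMIs.

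The plot of marker levels by class shows the same split for the transcription factors, of which 16 of 19 and 14 of 19 were higher in members, with a median log2 ratio of 4.61 and 3.52. *BCL11B* had 1509 and 1192 CPM in members and 8.55 and 11.2 CPM in the other barcodes. *STAT4*, which transmits signals of interleukin 12, stood at 1612 and 1313 CPM in members against 4.36 and 10.6 CPM. For *IKZF1*, a regulator of lymphoid development, the levels were 1042 and 741 CPM in members against 3.68 and 10.2 CPM. *RORA*, a nuclear receptor found in many tissues, was not higher, at 384 and 225 CPM in members and 544 and 421 CPM in the other barcodes.

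Defining markers of several other cells were at or near 0 in members, though not all genes of their lists were. The macrophage genes *MARCO*, *MPEG1*, *CSF3R*, *CYBB* and *TLR4* had 0 UMIs in members of either library, and so had the B cell factor *PAX5* and the pigment cell genes *PMEL*, *MLANA*, *SOX10* and *GPNMB*. A count of 0 allows up to 12.4 CPM in the HVP-labelled library and 4.90 CPM in the Normal-labelled library, the level of 3 UMIs. *CD79B* of B cells had 1 UMI in each library and *JCHAIN* of plasma cells 0 and 1. The share over all genes outside the rule was 12.5% and 13.8% higher in members and 10.3% and 16.2% lower. Of the whole B cell list, 2 of 9 genes with at least 10 UMIs were higher in members of each library and 2 and 4 lower. The more abundant of these was *BLK*, a kinase of antigen receptor signalling in B cells, with 51 UMIs in 25 and 68 in 38 members, at 211 and 111 CPM in members against 1.15 and 1.92 CPM in the other barcodes. In the list of NK and innate lymphoid cells 2 and 1 of 5 genes were higher and 2 lower in each library. *FCER1G*, an Fc receptor chain, had 30 UMIs in 13 and 122 in 34 members and was higher in both libraries, and *KIT*, the stem cell factor receptor, also a gene of the pigment cell list, had 8 UMIs in 4 and 1 in 1 and was higher in the HVP-labelled library. *KIT* was the 1 of 8 pigment cell genes higher there, where 1 was lower, while 0 were higher and 4 lower in the Normal-labelled library. Thrombocyte genes were higher in 1 of 4 and 0 of 4 cases, *ITGA2B* with 3 UMIs in the HVP-labelled library. The part of these cells in other results was not tested. Fibroblast genes were not at 0. Their 6 listed genes summed to 7555 and 5529 CPM in members, with at least 1 UMI in 61 and 136 members, against 65909 and 43285 CPM in the other barcodes, and all 6 were lower in members of both libraries. In macrophages these genes summed to 7506 and 6774 CPM, a level like that of the members. Of the 7 blood endothelial genes, 4 and 7 were lower in members, and of the 6 mural genes 5 and 6. UMIs of at least 3 blood endothelial or at least 3 mural markers were found in 4 and 11 members, and the 2 genes whose direction in the Normal-labelled library was lost without these barcodes, *VWF* and *PDE10A*, are described with the co-receptor classes.

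The 20 genes with the highest ratios over the other barcodes were taken from 886 genes that reached 50 UMIs in each library's members, ranked by the smaller of each gene's 2 ratios. They comprised receptors and signalling genes, cytotoxic genes and chemokines, transcription factors and 4 genes that the files give only by identifier. Of the 886 genes, 359 (40.5%) were at least 2-fold higher in members of both libraries, 243 (27.4%) against macrophages and 340 (38.4%) against blood endothelial barcodes. The 886 genes were admitted by their UMIs in members alone, so these shares are no result about the members. Among genes with at least 10 UMIs over members and other barcodes, 12.5% and 13.8% were higher in members of the libraries labelled HVP and Normal. In the same genes 10.3% and 16.2% were lower. *ICOS*, the inducible costimulator, lies on chromosome 7 at 12991053 to 13003014 of GRCg7b, beside *CTLA4* (13023423 to 13027636) and *CD28* (13056882 to 13069542). It had 94 UMIs in 33 members of the HVP-labelled library and 138 UMIs in 57 members of the Normal-labelled library (388 and 225 CPM), against 0.8997 and 0.884 CPM in the other barcodes. The ratios were 432 (286 to 667) and 255 (163 to 415).

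Further receptor genes of this group were *UBASH3A*, which restrains receptor signalling, with 244 and 224 CPM in members and ratios of 619 and 149. *SH2D1A*, an adaptor of lymphocyte surface receptors, had 116 UMIs in 28 and 437 in 101 members. *TARP*, a symbol given to a gene of the T cell receptor gamma locus (chromosome 2, 49010712 to 49099826), had 161 UMIs in 40 members and 339 UMIs in 79 members (665 and 554 CPM), and 0 UMIs in the macrophages of either library. About as many members thus had *TARP* as had *TCF7*, and which receptor chains a member made was not analysed. *IL2RB*, a receptor chain for interleukins 2 and 15, was found in 29 and 79 members at 339 and 284 CPM. *TOX*, a chromatin factor of T cell development, was found in 29 and 76 members, at 496 and 377 CPM against 3.99 and 5.77 CPM in the other barcodes. The phosphatase *PTPN22*, the vesicle protein *SYTL1* and the RNA-binding protein *ZC3H12D* also belong to the 20 genes, at 405, 277 and 570.3 CPM in members of the HVP-labelled library and 367, 251 and 483 CPM in those of the Normal-labelled library. Of the genes without a name, ENSGALG00010018038 was the most abundant, at 2095 and 2689 CPM in 60 and 162 members.

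Cytotoxic genes were spread unevenly over the members. The 14 listed genes took a median of 0.775% of a member's UMIs in the HVP-labelled library and 0.956% in the Normal-labelled library, with a highest value of 8.59% and 10.4%. *SRGN*, a granule proteoglycan found in nearly every member, gave 1357 of their 3788 and 2524 of their 8990 UMIs. It took up to 8.55% of a member's UMIs in the HVP-labelled library and 5.10% in the Normal-labelled library, and *GNLY* up to 5.26% and 8.32%. The highest list share in the HVP-labelled library was thus mostly *SRGN*. It came from a barcode with 20 UMIs of *HDC*, the enzyme that makes histamine, 1 of *GNLY* and 0 of *TARP*. This barcode belongs to the small set described at the end. *GNLY* gave 1878 of the 3788 and 4907 of the 8990 UMIs. It had 1878 UMIs in 38 of 73 members of the HVP-labelled library and 4907 UMIs in 106 of 180 members of the Normal-labelled library, or 7762 and 8012 CPM, and at most 294 and 360 UMIs in 1 barcode. Per member the values ran from 0 over a median of 1 to 294 UMIs in the HVP-labelled library and from 0 over a median of 3.5 to 360 in the Normal-labelled library, so that members with many *GNLY* UMIs stood beside members with none. Macrophages of the 2 libraries had 1 and 2 UMIs of *GNLY*, and the other barcodes 22.6 and 64.1 CPM, with at least 1 UMI in 5.22% and 6.08% of them. After each barcode was thinned to 1000 UMIs, *GNLY* was found in 45.8% of 72 and 56% of 175 members, against 0.752% of 133 and 0 of 142 macrophages and 1.27% of 1418 and 1.46% of 1505 blood endothelial barcodes. The share in members was thus far above that in macrophages and blood endothelial barcodes, which should lack *GNLY*, at median depths of 2434 and 2287 UMIs in members, 2029 and 1825 in macrophages and 3585 and 3875 in blood endothelial barcodes before thinning.

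The granzymes and chemokines of killer cells came from fewer members. *GZMM*, a granzyme, had 117 UMIs in 23 and 326 in 65 members, and *GZMA* 48 in 11 and 209 in 37. *PRF1*, the pore-forming perforin, was rare with 8 UMIs in 6 and 39 in 22 members. *XCL1*, a chemokine of activated killer cells, had 401 and 499.7 CPM in members with ratios over the other barcodes of 839 (498 to 1498) and 220.2 (166 to 296). *CCL5*, a chemokine that attracts leukocytes, had 591 and 735 CPM in members against 31.7 and 25.3 CPM in macrophages. *SRGN*, the proteoglycan that packs granules, was found in nearly every member (66 and 174), at 5608 and 4121 CPM, with 172 and 351 CPM in macrophages. Over all genes outside the rule, 12.5% and 13.8% were higher in members than in the other barcodes and 10.3% and 16.2% lower. Of the cytotoxic list, 10 of 12 and 11 of 13 genes with at least 10 UMIs were higher in members and 2 were lower in each library. One of the lower genes was *TNFSF10*, a death ligand, at 28.9 and 32.7 CPM in members and 103 and 118 CPM elsewhere. The other carries the second of 2 identifiers with the symbol *CCL4*.

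*GNLY* was found together with the killer genes and apart from the costimulatory receptors. Of the 38 members with *GNLY* in the HVP-labelled library, 29 also had *TARP*, against 11 of the 35 without it, and in the Normal-labelled library 66 of 106 had *TARP*, against 13 of 74. *XCL1* was found in 18 of 38 with *GNLY* and 0 of 35 without it, and in 57 of 106 and 1 of 74. *GZMM* followed it in 19 of 38 against 4 of 35 members, and in 63 of 106 against 2 of 74. The costimulatory receptors had the opposite pattern. *ICOS* was found in 6 of 38 members with *GNLY* and 27 of 35 without it, and in 9 of 106 and 48 of 74. For *CD28*, a gene of the rule, the counts were 3 of 38 and 20 of 35, and 12 of 106 and 55 of 74. Members with *GNLY* were deeper, with a median of 3302 against 2130 UMIs in the HVP-labelled library and 2610 against 1762.5 UMIs in the Normal-labelled library. A greater depth makes any gene easier to find. These counts were not thinned to equal depth, and the part of depth in them was not tested.

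**Figure D2:**
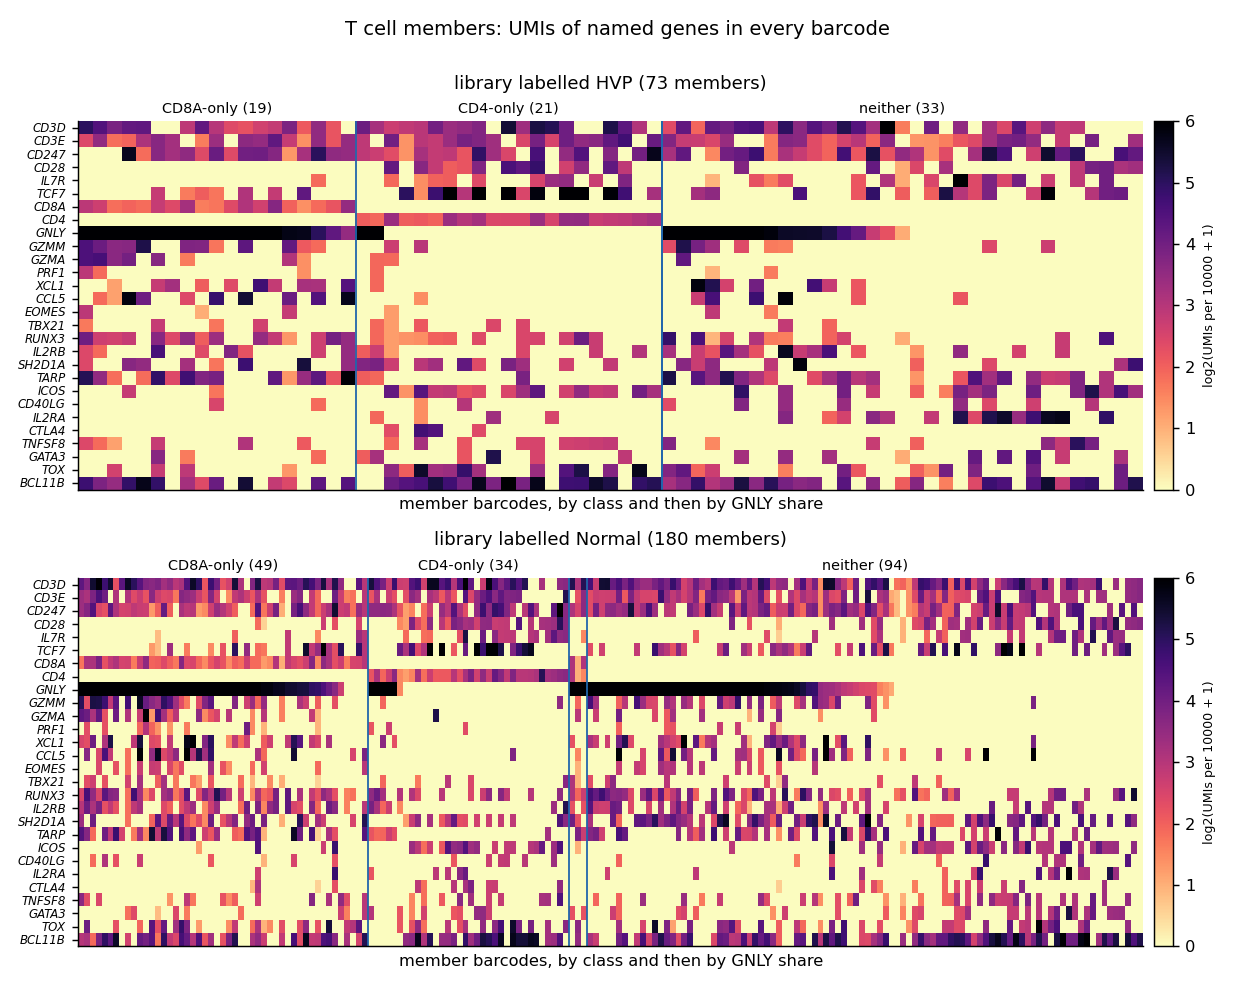
UMIs of 28 genes (rows) in every T cell member (columns) of the HVP-labelled library (top, 73 members) and the Normal-labelled library (bottom, 180 members), as log2(UMIs per 10000 + 1) with the colour scale ending at 6, ordered by class and then by the *GNLY* share. Lines part CD8A-only, CD4-only and, in the lower panel, the 3 members with both genes from those with neither. Dark *GNLY* runs through nearly all CD8A-only members and few CD4-only members, and *ICOS* and *CD28* are found mostly in columns without *GNLY*.

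The map of every member's UMIs also shows the split by co-receptor. Members with a UMI of *CD8A* and none of *CD4* are called CD8A-only, and those with *CD4* and no *CD8A* CD4-only. In the HVP-labelled library 19 of 73 members were CD8A-only (26.0%, 16.5% to 37.6%), 21 were CD4-only (28.8%, 18.8% to 40.6%), 0 had both and 33 neither. The Normal-labelled library held 49 CD8A-only members of 180 (27.2%, 20.9% to 34.3%), 34 CD4-only members (18.9%, 13.5% to 25.4%), 3 with both and 94 with neither. The classes rest on 30 and 83 UMIs of *CD8A* and 36 and 54 of *CD4*, so a member without a UMI of a co-receptor may still express it. CD8A-only members were deeper, with a median of 3767 and 3522 UMIs, against 2195 and 2075.5 UMIs in CD4-only members and 2374 and 2035 in those with neither. Genes were compared as summed CPM, which scales for depth, and shares of barcodes are given after thinning to 1000 UMIs. *CD28*, *TCF7* and *IL7R* are rule genes like *CD8A* and *CD4*, so which members are CD8A-only or CD4-only is tied to them.

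Among 1319 genes with at least 20 UMIs over both classes in each library, 25 (1.9%) were higher in CD8A-only members in both libraries and 52 (3.94%) were lower, while 15 were called in opposite directions. In the HVP-labelled library alone 118 of 1346 genes (8.77%) were higher and 119 (8.84%) lower, and in the Normal-labelled library 285 of 2962 (9.62%) were higher and 260 (8.78%) lower. The same sign in both libraries was found for 782 of the 1319 genes. The 77 genes called alike became 33 when mitochondrial UMIs had to be under 5% and genes between 300 and 4000, and 4 after thinning to 1000 UMIs. The cytotoxic list stood out by its counts. In the HVP-labelled library 6 of its 7 genes with at least 20 UMIs were higher in CD8A-only members and 0 lower, and in the Normal-labelled library 7 of 9 and 0. Its median log2 ratio was 3.11 and 3.26, or 3.49 and 2.32 with genes at 0 in a class set to the level of 3 UMIs, beside -0.03 and -0.06 over all genes.

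*GNLY* had 1424 UMIs in all 19 CD8A-only members of the HVP-labelled library (18870.4 CPM, lowest 1, median 36 and highest 294 UMIs per barcode) and 102 UMIs in 2 of 21 CD4-only members (1683 CPM). In the Normal-labelled library it had 2886 UMIs in 45 of 49 CD8A-only members (12636 CPM, lowest 0, median 51 and highest 360) and 270 in 6 of 34 CD4-only members (3085 CPM). The CD4-only sums come from 2 and 6 barcodes with up to 52 and 82 UMIs each, and the other CD4-only members had none. The ratio was 11.2 (9.17 to 13.8) and 4.096 (3.61 to 4.66). Thinned to 1000 UMIs, *GNLY* was found in 18 of 18 and 45 of 49 CD8A-only members and in 2 of 21 and 5 of 32 CD4-only members, where 1 and 0 CD8A-only and 0 and 2 CD4-only members were too shallow to be thinned. Members with neither co-receptor lay between, at 3324 and 5275 CPM.

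The granzymes had the same direction. *GZMM* had 82 UMIs in 12 CD8A-only and 8 in 2 CD4-only members of the HVP-labelled library, and 206 in 30 and 2 in 2 of the Normal-labelled library, with ratios of 8.23 (3.99 to 19.7) and 39.5 (10.8 to 328). For *GZMA* the ratios were 11.2 (3.59 to 56.7) and 4.98 (2.702 to 10.2), and 11 UMIs of the CD4-only members of the Normal-labelled library came from 1 barcode. *PRF1* counts were 5 against 1 and 22 against 3, with ratios of 4.02 (0.449 to 189.9) and 2.81 (0.844 to 14.7) whose intervals include 1. The chemokines were nearly absent from CD4-only members. *CCL5* had 76 UMIs in 10 CD8A-only members and 1 UMI in CD4-only members of the HVP-labelled library, and 224 in 21 and 2 in 1 of the Normal-labelled library, with ratios of 61.04 (10.6 to 2442) and 42.9 (11.7 to 357). *XCL1* followed with 24 against 1 and 164 against 5 UMIs, and ratios of 19.3 (3.14 to 793) and 12.6 (5.28 to 39.2). Members with neither co-receptor also held both chemokines, at 66 and 222 UMIs of *CCL5* and 72 and 136 of *XCL1*. Of the 72 *XCL1* UMIs in the HVP-labelled library, 38 came from 1 barcode. *CCL4* (ENSGALG00010029562), another leukocyte attractant, had 44 against 13 UMIs, the 13 in 1 barcode, and 78 against 0 UMIs. Its ratio was 2.72 (1.44 to 5.501) in the HVP-labelled library and at least 9.96-fold higher in CD8A-only members of the Normal-labelled library, against the level of 3 UMIs over the class. *CCL4* had 3159 and 2977 CPM in macrophages, above the 446 and 183 CPM of the members, and the part of free RNA in its UMIs was not tested. *SRGN* was the member of the list without this direction, at ratios of 0.755 and 0.678. In CD4-only members, 1 barcode held 124 of its 282 UMIs in the HVP-labelled library and 1 held 156 of 518 in the Normal-labelled library. Both are among the barcodes with many *HDC* UMIs described at the end, and their part in the *SRGN* ratios was not tested.

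*TARP* of the receptor gamma locus was also higher in CD8A-only than in CD4-only members. It had 82 UMIs in 15 CD8A-only members (1087 CPM) and 5 in 3 CD4-only members (82.5 CPM) of the HVP-labelled library, and 173 in 33 (757 CPM) and 6 in 6 (68.6 CPM) of the Normal-labelled library. The ratios were 13.2 (5.42 to 41.6) and 11.05 (4.97 to 30.5). Members with neither co-receptor had 74 UMIs of *TARP* in 22 of 33 and 143 in 38 of 94 barcodes, so it was not limited to the CD8A-only class. Thinned, it was found in 55.6% and 36.7% of CD8A-only and 4.76% and 6.25% of CD4-only members, and in 0 macrophages. Among transcription factors of killer cells, *EOMES* had 8 against 1 and 49 against 0 UMIs, with a ratio of 6.43 (0.861 to 285), an interval that includes 1, in the HVP-labelled library and a level at least 6.26-fold higher in CD8A-only members of the Normal-labelled library. *RUNX3*, which maintains the CD8 lineage, had ratios of 2.35 (1.26 to 4.67) and 1.498 (1.02 to 2.27), so that only the ratio of the HVP-labelled library passed 2-fold. *TBX21*, the third of these factors, had 4 against 6 and 25 against 6 UMIs, with intervals of the ratio that include 1. *ITGB2*, the leukocyte integrin chain beta 2, had 12 against 1 and 42 against 2 UMIs and ratios of 9.64 (1.43 to 412) and 8.05 (2.09 to 68.6). The counts of *EOMES* and *ITGB2* in the HVP-labelled library are under the minimum of 20 UMIs. The zinc finger factor *ZBTB38* completed the 10 genes with the highest ratios, at 15.3 (2.43 to 634) and 4.98 (1.83 to 18.96).

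Some genes of that rank rested on single barcodes. *VWF*, the clotting factor of endothelial cells, had 24 UMIs in CD8A-only members of the HVP-labelled library, 21 of them in 1 barcode, and 53 in the Normal-labelled library, 41 in 1 barcode. *PDE10A*, a phosphodiesterase, had 60 of 61 and 28 of 36 UMIs in 1 barcode, and *APOA1*, the main protein of high-density lipoprotein, 885 of 1072 and 136 of 246. Without that barcode the ratio of *VWF* was 2.76 and 2.40, with intervals that include 1, where it was 19.3 and 10.2 with it. In the Normal-labelled library, *VWF* and *PDE10A* had ratios of 0.190 and 0.758 once members with at least 3 blood endothelial or mural markers were left out. The ratio of *APOA1* was 7.18 and 2.14 without that barcode and 37.4 and 4.71 with it. For *PDE10A* in the Normal-labelled library it was 1.60 without that barcode and 6.897 with it. Markers of blood vessels moved with the CD8A-only class, since the 7 listed genes summed to 451 and 420 CPM in CD8A-only and 49.5 and 194 CPM in CD4-only members, with 6 and 6 of the genes found in CD8A-only and 2 and 4 in CD4-only members, and *PECAM1* had 13 against 2 UMIs in the HVP-labelled library, under the minimum of 20, and a ratio of 2.597 (1.28 to 5.95) in the Normal-labelled library. These UMIs came from 3 and 11 CD8A-only and 2 and 8 CD4-only barcodes, and their part in the other ratios was not tested. The ratios of *GNLY*, *GZMM*, *XCL1*, *CCL5* and *TARP* without the barcode that held most of their UMIs were 9.95, 7.20, 16.6, 48.0 and 11.5 in the HVP-labelled library and 3.65, 38.9, 10.5, 32.5 and 9.48 in the Normal-labelled library.

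**Figure D3:**
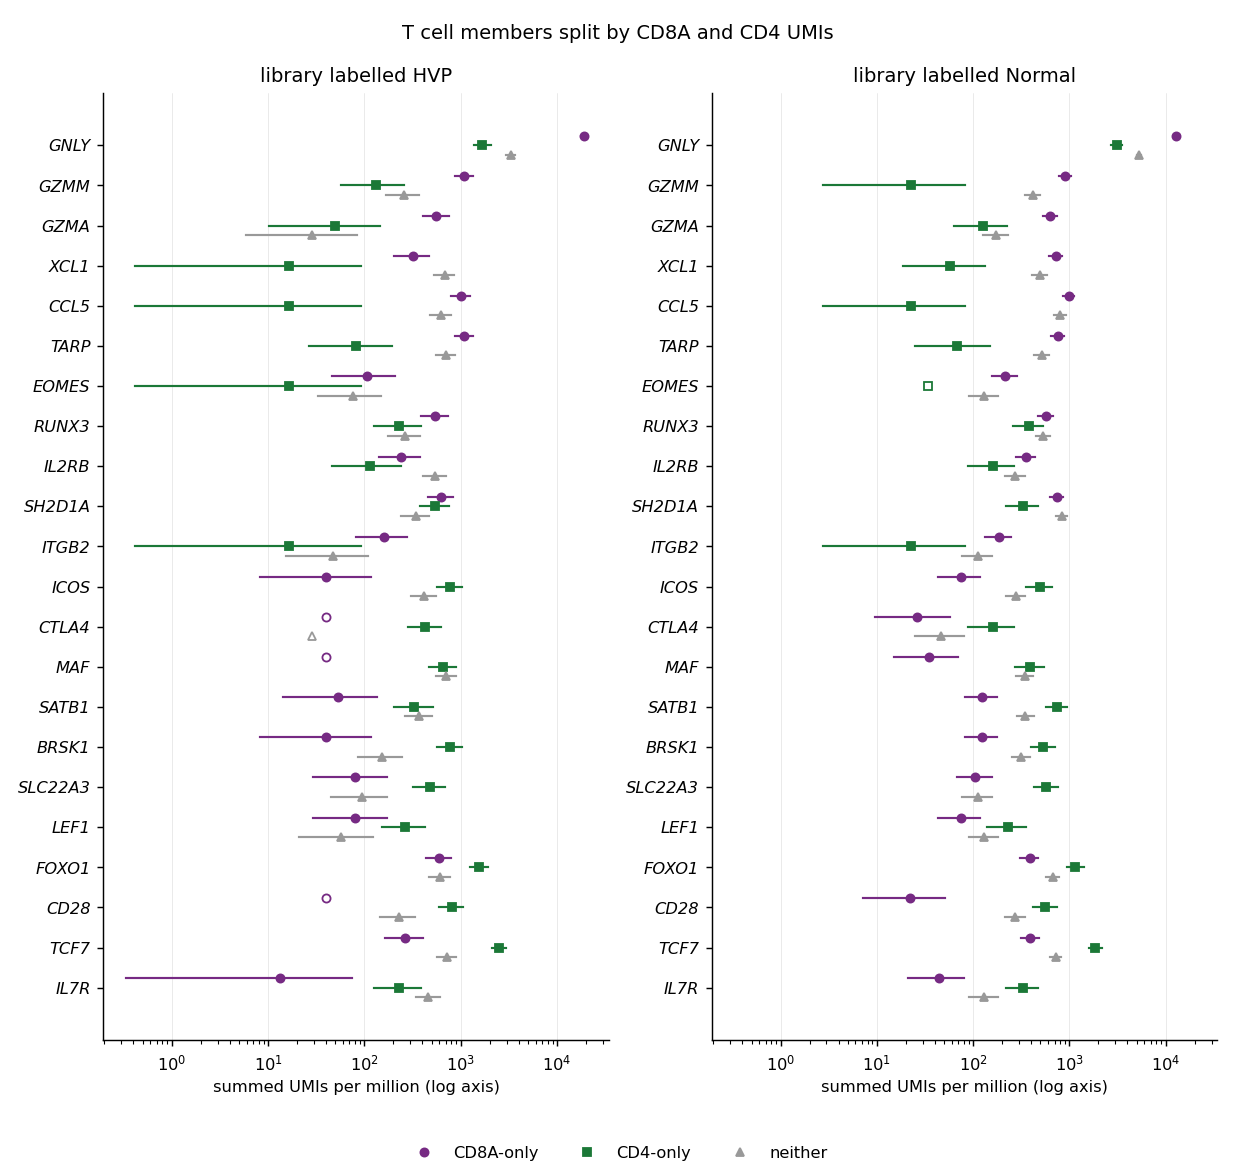
Summed CPM of 22 genes in CD8A-only (circles), CD4-only (squares) and neither (triangles) members of the HVP-labelled library (left) and the Normal-labelled library (right), on a log axis with 95% Poisson intervals. Open symbols mark a count of 0, drawn at the level of 3 UMIs. From *GNLY* to *ITGB2* the circles lie right of the squares in both panels, and from *ICOS* to *IL7R* left of them.

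Set against CD8A-only members, CD4-only members had more of the costimulatory receptors and of transcription factors of helper and resting T cells. The plot of levels by co-receptor class shows these differences. *ICOS* had 3 UMIs in 2 CD8A-only members (39.8 CPM) and 47 in 16 of 21 CD4-only members (775 CPM) of the HVP-labelled library. It had 17 in 4 (74.4 CPM) and 43 in 19 of 34 (491 CPM) in the Normal-labelled library. The ratios were 0.0513 (0.0102 to 0.159) and 0.151 (0.081 to 0.271), and after thinning 5.56% and 4.08% of CD8A-only and 28.6% and 50% of CD4-only members had *ICOS*, with 0 macrophages. *CTLA4*, the inhibitory receptor of the same family and its neighbour on chromosome 7, had 0 against 26 UMIs and 6 against 14 UMIs. In the HVP-labelled library these came from 4 barcodes and were at least 10.8-fold higher in CD4-only members, and in the Normal-labelled library the ratio was 0.164 (0.0517 to 0.455). *CD28*, the third gene of this family there, had 0 against 49 and 5 against 49 UMIs and is part of the rule.

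*MAF*, a transcription factor of helper T cells, had 0 UMIs in CD8A-only and 40 in 9 CD4-only members of the HVP-labelled library, at least 16.6-fold higher in CD4-only members, and 8 against 34 in the Normal-labelled library, with a ratio of 0.0902 (0.0361 to 0.198). Members with neither co-receptor held more *MAF* UMIs than the CD4-only class, 75 in 16 of 33 and 95 in 28 of 94 barcodes. Macrophages had 15.8 and 30.3 CPM of *MAF*, the other barcodes 132 and 159 CPM. The helper list, with *ICOS*, *MAF* and the follicular helper factor *BCL6*, had 0 of 3 genes higher in CD8A-only members of either library and 2 and 3 lower, at a median log2 ratio of -3.90 and -2.67. The third gene, *BCL6*, had ratios of 0.803 (0.453 to 1.42) and 0.482 (0.337 to 0.693). *GATA3*, a factor of helper T cell development on the transcription factor list, had 4 against 15 UMIs in the HVP-labelled library, under the minimum of 20, and a ratio of 0.301 (0.124 to 0.714) in the Normal-labelled library. In the naive list 3 of 5 and 4 of 6 genes were lower and 0 higher, at a median of -1.36 and -1.59. *SATB1*, a chromatin organiser, had ratios of 0.161 (0.0399 to 0.4795) and 0.165 (0.102 to 0.261), *FOXO1*, a factor of resting T cells, 0.384 (0.263 to 0.554) and 0.334 (0.248 to 0.449), and *LEF1*, a partner of *TCF7*, 0.301 (0.0965 to 0.8103) and 0.326 (0.1602 to 0.655). *TCF7* itself had 265 and 389.7 CPM in CD8A-only and 2491 and 1863 CPM in CD4-only members. *KLF2*, of the same list, had ratios of 0.649 (0.347 to 1.199) and 0.766 (0.525 to 1.13), which did not pass 2-fold.

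Other genes lower in CD8A-only members of both libraries were on none of the lists. They included *SLC22A3*, an organic cation transporter, with ratios of 0.166 (0.0564 to 0.407) and 0.184 (0.108 to 0.305), and the kinase *BRSK1*, with 3 against 47 and 28 against 47 UMIs. *PDSS2*, an enzyme of coenzyme Q synthesis, had ratios of 0.257 (0.1002 to 0.588) and 0.1703 (0.0786 to 0.348), and *LPP*, a protein of cell adhesions, 0.245 (0.113 to 0.493) and 0.307 (0.186 to 0.5004). *HDC*, the enzyme that makes histamine, and ENSGALG00010027126 were led by 1 CD4-only barcode in each library, described at the end. *UBASH3A* of the receptor's signalling was also lower in CD8A-only members (0.375, interval 0.184 to 0.729, and 0.355, interval 0.222 to 0.566). *CD5*, which dampens the signal, had 3 against 13 UMIs in the HVP-labelled library, under the minimum of 20, and a ratio of 0.219 (0.0982 to 0.466) in the Normal-labelled library, while the receptor chains *CD3D*, *CD3E* and *CD247* stayed within 2-fold. Other genes differed in 1 library only. *TOX* had a ratio of 0.0964 (0.0424 to 0.193) in the HVP-labelled library and 0.947 (0.636 to 1.44) in the Normal-labelled library, and *IKZF2*, a factor of regulatory T cells, 5.62 (2.19 to 18.4) and 0.889 (0.547 to 1.48). Fibroblast genes moved with the CD4-only class. The 6 listed genes summed to 3922.5 and 4580 CPM in CD8A-only and 10543 and 6936 CPM in CD4-only members, *COL3A1* had ratios of 0.254 (0.1905 to 0.335) and 0.387 (0.294 to 0.509), and their part in the ratios of other genes was not tested. Of the ribosomal protein genes 0 of 63 and 1 of 66 were called higher in CD8A-only members and 0 lower, with 46 and 65 above 0 and a median log2 ratio of 0.24 and 0.39. Of the mitochondrial genes 3 of 11 and 12 of 12 lay above 0, with a median of -0.08 and 0.62, and 0 and 1 were called higher. Over all genes outside the rule, 655 of 1346 and 1405 of 2962 lay above 0.

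**Figure D4:**
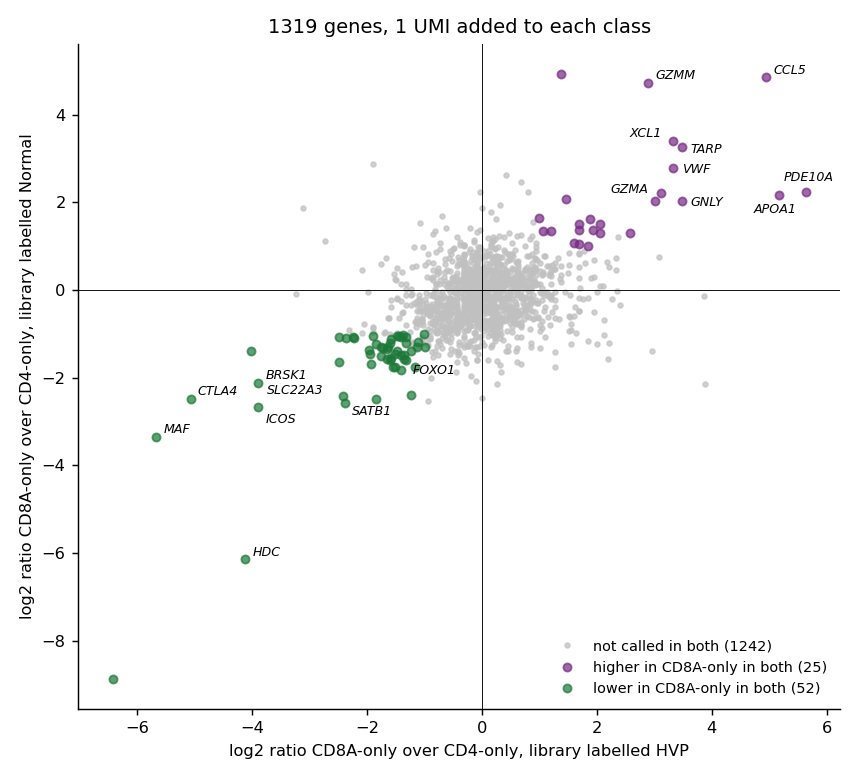
Each point is 1 of 1319 genes with its log2 ratio of CD8A-only over CD4-only members in the HVP-labelled library (x axis) and in the Normal-labelled library (y axis), after 1 UMI was added to each class. Purple genes were higher and green genes lower in CD8A-only members of both libraries (25 and 52), grey genes were not called alike in both, and *VWF*, *PDE10A*, *APOA1* and *HDC* rest on few barcodes.

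The plot of ratios in both libraries includes the other genes called in both. The 4 named next were chosen after their values were seen. Among those higher in CD8A-only members were *PRKCH*, a protein kinase C, at ratios of 6.18 and 2.50, *BCL2A1*, which protects cells from death, at 3.08 and 5.49, and *RUBCNL* at 2.23 and 2.83. Among those lower was *PPP3CA*, the catalytic chain of calcineurin, at 0.167 and 0.474. Antigen presentation genes of class II, which chicken T cells can carry when activated, were higher in CD8A-only members of the Normal-labelled library. *BLB2* had 96 against 8 UMIs there (ratio 4.598, interval 2.24 to 10.95) and *CD74*, the invariant chain, 80 against 8 (ratio 3.83, interval 1.85 to 9.18), where macrophages held 13323 and 10095 CPM. In the HVP-labelled library they had 6 against 3 and 9 against 3 UMIs, too few for the comparison. Cycling genes were likewise higher in CD8A-only members of the Normal-labelled library alone, where 9 of 49 CD8A-only and 0 of 34 CD4-only members had at least 3 of the cycling genes. *TOP2A*, which untangles DNA in dividing cells, had 55 against 1 UMIs there and 0 against 9 in the HVP-labelled library, where 2 CD4-only barcodes held it.

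Genes of activation, homing and cytokines were compared over all members. Of all genes outside the rule with at least 10 UMIs, 12.5% and 13.8% were higher in members than in the other barcodes. The activation list had 8 of 8 and 7 of 8 genes higher than in the other barcodes, with *TOX2*, a relative of *TOX*, at 285 and 227 CPM, the tumour necrosis factor receptor *TNFRSF1B* at 310.0 and 227 CPM and the inhibitory receptor *PDCD1* at 37.2 and 19.6 CPM. Integrins and homing receptors were higher in 4 of 5 and 4 of 5 genes. *CD44*, which binds hyaluronan, was found in 72 of 73 and 174 of 180 members at 2757 and 1883 CPM, with 2631 and 1762 CPM in macrophages. *CXCR4*, a homing receptor of lymphocytes, led the chemokine receptors, at 42 UMIs in 27 and 191 in 89 members. *RGS1*, which dampens chemokine receptors, had 401 and 364 CPM, close to the 407 and 447 CPM of macrophages. Of the cytokine receptor list 7 of 11 and 8 of 11 genes were higher, and of the regulatory list 6 of 7 and 5 of 7. Few UMIs were found of most listed cytokines, and a count of 0 does not exclude low expression. *IL4*, *IL5*, *IL13*, *IL17A*, *IL22* and *CSF2* had 0 UMIs in members of either library, *IFNG* had 0 and 2, *IL2* 0 and 2, *IL10* 4 and 0, and *IL21* 6 and 4. *TNFSF8*, a ligand of activated T cells, was the gene of the cytokine list found most, with 42 UMIs in 23 and 86 in 59 members. *CD40LG*, the helper ligand for B cells, had 23 and 37 UMIs.

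Between the libraries, T cell genes of members were mostly within 2-fold of each other. Among 3117 genes with at least 50 UMIs over both, 135 (4.33%) were higher and 193 (6.19%) lower in members of the HVP-labelled library. These 328 genes became 147 without the 1 and 14 members that had at least 3 cycling genes, a comparison added after seeing the data. With 1 library per group these ratios say how 2 libraries differ, and the peritoneum colour cannot be told apart from the library. *GNLY* had a ratio of 0.969 (0.918 to 1.02), *CD3E* of 1.02 (0.838 to 1.25), *TARP* of 1.202 (0.9902 to 1.45) and *CD3D* of 0.776 (0.678 to 0.885). Of the transcription factors 0 of 16 and of the cytotoxic list 1 of 7, *CCL4*, were called, at medians of 0.34 and -0.13 beside 0.06 over all genes on the log2 scale. *IL2RA*, the high-affinity interleukin 2 receptor chain, was higher in the HVP-labelled library at 335 CPM against 97.97 CPM (ratio 3.42, interval 2.42 to 4.85), and *MAF* at 475 CPM against 224 CPM (ratio 2.12, interval 1.64 to 2.74). *IL7R*, a rule gene, had 265 and 124 CPM, and 1 barcode held 25 of its 64 UMIs in the HVP-labelled library.

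**Figure D5:**
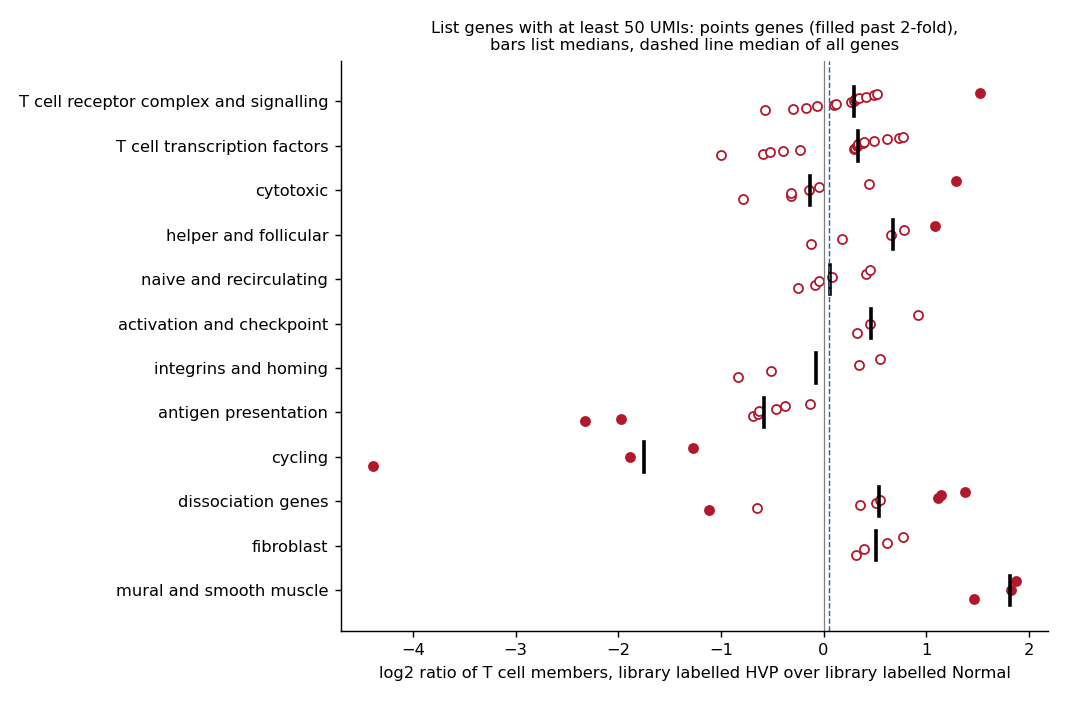
Log2 ratio of members of the HVP-labelled library over members of the Normal-labelled library for the genes of 12 lists with at least 50 UMIs (points, filled where the ratio passed 2-fold with an interval that excludes 1), with list medians (bars) and the median of all genes (dashed line). Receptor, transcription factor and cytotoxic genes lie at medians of 0.29, 0.34 and -0.13, beside 0.06 over all genes. The cycling genes lie at a median of -1.75 and the mural genes at 1.81.

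The plot of list ratios shows where the libraries differed more. The 5 genes with the highest ratios were *HDC* (ratio 13.9, interval 9.16 to 21.8), *PTGDS*, which makes prostaglandin D2 (ratio 7.34, interval 5.08 to 10.8), *DSE*, an enzyme of dermatan sulfate synthesis (ratio 6.58, interval 3.86 to 11.6), *FAM102B* (ratio 6.402, interval 3.58 to 11.97) and *KCNQ1*, a potassium channel (ratio 6.04, interval 4.87 to 7.52). *HDC* had 148 UMIs in 5 members of the HVP-labelled library and 27 in 2 of the Normal-labelled library, and without its top barcode the ratio was 6.996. *PTGDS* and *KCNQ1* had ratios of 3.19 and 4.69 without theirs. Mural genes were higher in members of the HVP-labelled library, 3 of 3 with a median of 1.81, from UMIs in 15 of 73 and 25 of 180 members. Over all genes 4.33% were higher, at a median of 0.06. *DES* of muscle had 45 UMIs in 4 and 31 in 6 members, so that few barcodes held it, and the part of these UMIs in other differences was not tested.

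The lowest ratios were those of *CDK1*, the kinase that drives mitosis (ratio 0.0478, interval 0.00119 to 0.278), *CKS1B*, its small partner (ratio 0.0767, interval 0.0206 to 0.201), the lipid carrier *FABP4* (ratio 0.156, interval 0.115 to 0.207), *NDUFAB1* of mitochondrial fatty acid synthesis (ratio 0.152, interval 0.0482 to 0.3703) and *UBE2U*, a ubiquitin-conjugating enzyme (ratio 0.149, interval 0.0394 to 0.399). All 3 cycling genes with enough UMIs were lower in the HVP-labelled library, and members with at least 3 cycling genes numbered 1 of 73 and 14 of 180. *FABP4* had 211 CPM in members of the HVP-labelled library and 1350.4 CPM in those of the Normal-labelled library, and 3773 and 7971 CPM in the other barcodes, so the surrounding cells had the same direction. Class II genes were lower too, *BLB2* at 0.199 (0.112 to 0.332) and *CD74* at 0.254 (0.152 to 0.404), with 9194 and 13323 CPM of *BLB2* in macrophages. All 8 antigen presentation genes with enough UMIs lay below 0, at a median of -0.58, and 2 of them passed 2-fold. Over all genes outside the rule with at least 50 UMIs, 1426 of 3117 lay below 0, at a median of 0.06. Of these 3117 genes 4.33% were called higher and 6.19% lower. Of 66 ribosomal protein genes 64 had a log2 ratio below 0, at a median of -0.52, and 0 of them passed 2-fold. They took a median of 6.58% of a member's UMIs in the HVP-labelled library and 9.16% in the Normal-labelled library, and 8.80% and 8.49% in the other barcodes. Genes that respond to tissue dissociation had 3 of 8 higher and 1 lower in the HVP-labelled library, with *JUN* at 2.603 (2.103 to 3.22) and *HSP90AA1*, a chaperone, at 0.462 (0.382 to 0.556), and their part in the other differences was not tested.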

How the data were processed

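The peritoneum of each group was sequenced as 1 10x 3' library. The deposited values are raw UMI counts per gene and barcode, which the authors made with Cell Ranger 7.1.0 on GRCg7b with mitochondrial genes added to the annotation. Reported 95% intervals of CPM are exact Poisson, those of shares Clopper-Pearson and those of ratios conditional binomial, computed with SciPy 1.17.1. UMIs were summed per library and class, and no p-value was computed, since each group is 1 sample. Genes needed 50 UMIs in members, 20 over both co-receptor classes or 50 over both libraries, and 10 where lists were set against other barcodes. Named genes were the 20 highest against other barcodes, the 10 highest and 10 lowest between classes (ranked by the smaller ratio of both libraries) and the 5 at each end between libraries. Members and lists were chosen with earlier results of these data known. Scrublet in scanpy 1.11.5 called 5 doublets in the HVP-labelled library, too few for a working caller, with 0 members, and 155 with 13 members in the Normal-labelled library. None were removed. Of the 294 list genes 240 were found by symbol. Gene positions came from RefSeq's GRCg7b table. The counting steps were tested on made-up barcodes and on counts drawn from a Poisson model. That model does not gather UMIs in few barcodes, so it says nothing of the intervals in that case. Alternatives changed the number of rule genes, the gene, mitochondrial and UMI limits, the scaling, doublets, depth and single barcodes, one at a time. Some list genes are counted in their list but not reported here by name.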

Additional observations from a re-analysis of the deposited data

Results flagged for a closer look

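Among the genes described above, *KCNQ1* and *JUN* were called in opposite directions between CD8A-only and CD4-only members of the libraries. *KCNQ1*, a potassium channel, had a ratio of 2.20 in the HVP-labelled library (74 against 27 UMIs, all 74 in 1 barcode). Its ratio in the Normal-labelled library was 0.484 (24 against 19 UMIs, 17 of the 19 in 1 barcode, which also had many *HDC* UMIs). The direction of *KCNQ1* thus rested on 1 barcode in each library. *JUN*, an immediate early transcription factor that dissociation can induce, had a ratio of 3.06 in the HVP-labelled library (61 against 16 UMIs) and of 0.430 in the Normal-labelled library (37 against 33 UMIs). After thinning, *JUN* was found in 2 of 18 CD8A-only and 5 of 21 CD4-only members of the HVP-labelled library. These shares, 11.1% (1.38% to 34.7%) and 23.8% (8.22% to 47.2%), have overlapping intervals. They did not repeat the direction of the summed ratio. In the Normal-labelled library *JUN* was found in 9 of 49 and 8 of 32 members after thinning (18.4% and 25%). The spread of its UMIs over barcodes and the difference between the libraries were not tested.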

How the results depend on the processing

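The counts of members were 73 and 180 in the libraries labelled HVP and Normal, and 47 and 117 with at least 4 rule genes, 31 and 95 when mitochondrial UMIs had to be under 5% and genes between 300 and 4000. Classed by the UMIs left after thinning to 1000 UMIs, 6.94% and 13.1% of members were CD8A-only and 16.7% and 11.4% CD4-only. The thinned shares of genes given for each class further above keep the classes from all UMIs instead. Classes from at least 2 UMIs gave 10.96% and 11.7% CD8A-only and 12.3% and 6.67% CD4-only. The 77 genes called alike between the classes in both libraries became 33 with the gene and mitochondrial limits, 4 after thinning and 128 with no minimum of UMIs. The 328 genes called between the libraries became 160, 51 and 925 under these settings, 520 with at least 2 rule genes, 211 as a mean over barcodes and 147 without cycling barcodes, a setting chosen after seeing the data. Reversed ratios in the Normal-labelled library were those of *VWF* (0.134 with at least 2 rule genes, 0.190 without barcodes holding markers of other cells), *PDE10A* (0.197 and 0.758 under these settings, 0.219 with classes from at least 2 UMIs) and *APOA1* (0.304 with at least 2 rule genes, 0.652 thinned, 0.306 with classes from at least 2 UMIs). Thinned, *APOA1* (0.267) and *LPP* (1.60) reversed in the HVP-labelled library. Thinning leaves fewer UMIs, and the cause of the other changes was not tested. No paired analysis was possible because each group is 1 library. Counting intervals take no account of UMIs gathered in few barcodes, and *CD8A* and *CD4* have so few UMIs that depth limits the classes.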

Other observations

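A small set of barcodes had many UMIs of both *HDC*, the enzyme that makes histamine, and ENSGALG00010027126, a gene without a name in the files. Barcodes with at least 10 UMIs of each numbered 7 in the HVP-labelled library, of which 4 were members, and 5 in the Normal-labelled library, of which 1 was a member. They held 251 of the 341 *HDC* UMIs and 928 of the 1094 UMIs of ENSGALG00010027126 in the HVP-labelled library, and 120 of 164 and 1067 of 1120 in the Normal-labelled library. All of them had *CD3D*, 6 of 7 and 5 of 5 had *FCER1G*, an Fc receptor chain of innate immune cells, 5 and 5 had *PTPRC*, and 0 had *CSF1R*. Their median depth was 2113 and 2428 UMIs. The 5 members among them had between 4 and 20 UMIs of *CD3D*, 7 to 35 UMIs of the potassium channel *KCNQ1* and 0 of *TARP*. *KIT*, the stem cell factor receptor, was found in the 4 members of the HVP-labelled library with 1 to 3 UMIs. These barcodes were chosen after their values were seen, and no name is given to them.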
